A study of Spodoptera frugiperda with 18 samples.

Results

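The miR-9, miR-79 and miR-306 miRNAs of the fall armyworm, Spodoptera frugiperda, a moth and pest of maize, were followed from the egg to the adult. They were chosen by name, as the 8 rows of the deposited table listed under miR-9, miR-79 or miR-306, out of 741 rows in all, or 660 after merging rows alike in sequence and counts. Total RNA went into 18 libraries: 1 of eggs, 6 of larvae (instars 1 to 6), 1 of prepupae, 6 of pupae (days 1, 4 and 7 of each sex) and 4 of adults (days 1 and 4 of each sex). The labels give no strain, tissue, diet or treatment, and each stage, sex and age has 1 library, so that libraries of different instars, ages or sexes stand as the replicates of a life stage (6 larvae, 6 pupae and 4 adults). Nothing in the labels says whether they came from separate cultures or pools, and the p-values therefore measure the spread between these samples only.

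MicroRNAs are short RNAs that guide Argonaute proteins to messenger RNAs, mainly by pairing through the seed, the bases 2 to 8 from the 5′ end. In Drosophila, miR-306, miR-79 and some of the miR-9 genes are encoded side by side in 1 cluster. Fly miR-9a limits the number of sensory organ precursors by repressing senseless and guards the wing margin by repressing dLMO, and fly miR-306 and miR-79 have been linked to JNK signalling. The mature miR-9 sequence is shared between insects and vertebrates, where it is a miRNA of the brain. The genome was not used here, so whether the armyworm genes lie together is not shown by these data.

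The sequences show how the rows relate to each other, and are given as the table lists them, as DNA letters 5′ to 3′ with the seed in capitals. In the names, x and y were read as the 5′ and the 3′ arm of a hairpin, and z marks rows without an assigned arm.
miR-9-z: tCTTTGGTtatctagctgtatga
miR-9-x: tCTTTGGTtatctagctgtatgat
miR-79-x: cTTTGGCGatttagctccgtga
miR-9-y: tAAAGTTAtggtaccgaagtta
miR-79-y: aTAAAGCTagattaccaaagc
miR-306-x: tCAGGTACtaggtgactctga
miR-306-z: gTCAGGTActaggtgactctga
miR-275-y: tCAGGTACctgaagtagcgcgcg
miR-9-z, of 23 bases, and miR-9-x, of 24 bases, are identical over 23 bases and share their seed. They were therefore read as 2 length forms of miR-9, and counting could have split reads between them. Whether they come from 1 gene was not tested. miR-79-x resembled them, with 6 differences over 22 aligned bases, but its seed was its own. miR-9-y and miR-79-y had 6 differences over 20 aligned bases when shifted by 1 base, and their seeds differed. miR-306-z matched miR-306-x over all 21 bases of the latter with an added base at the 5′ end, which moves its seed. miR-306-x had the same seed as miR-275-y, a miRNA that mosquitoes need for blood digestion and egg development, although the rows differed at 10 of 21 aligned bases. No other row of the table, apart from the few reads of a longer form named miR-275-z, had the seed of a miR-9, miR-79 or miR-306 row.

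Library totals lay between 230451 counts (instar 3) and 4808814 counts (prepupa), and all 6 larval libraries, the egg and the male pupae of days 4 and 7 had at most 796582. Levels are in CPM of the library total after merging, so 3 counts were worth 0.624 CPM in the deepest library and 13.02 CPM in the shallowest. let-7-x, a marker of metamorphosis in insects, was at 70.1 CPM in the egg and 28837 CPM in the day 1 female pupa, and miR-989-z, an ovary miRNA, reached 20612 CPM in females and 1.03 CPM in males on adult day 4, in keeping with the labels of stage and sex. Rows with family names known from vertebrates, 82 in number, took from 0.00190% to 0.92% of the counts, with the highest shares in instar 5 (0.92%), the day 4 female adult (0.793%) and the day 7 male pupa (0.694%). As vertebrate miR-9 has the same mature sequence, their part in the levels of miR-9-z and miR-9-x was not tested. In bulk RNA, fewer cells of a type and less RNA per cell cannot be told apart.

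miR-9-z and miR-306-x made up most of the counts of the 8 rows, with 64.4% and 27.97% of the sum over all libraries. miR-9-z, the main mature miR-9, had a mean level of 14319 CPM, rank 16 among the 660 rows, and miR-306-x a mean of 8206 CPM, rank 27. miR-9-y (mean 1215 CPM), miR-9-x (496 CPM), miR-79-x (271 CPM) and miR-79-y (75.0 CPM) followed. miR-306-y, with 153 counts over the 18 libraries, and miR-306-z, with 44, were at 3 counts or fewer in 7 and 13 libraries and are given by their counts only. Together the 8 rows took 5.84% of the egg's counts and 3.78% of the prepupa's, against 0.642% in the day 4 male adult, the lowest share.

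**Figure D1:**
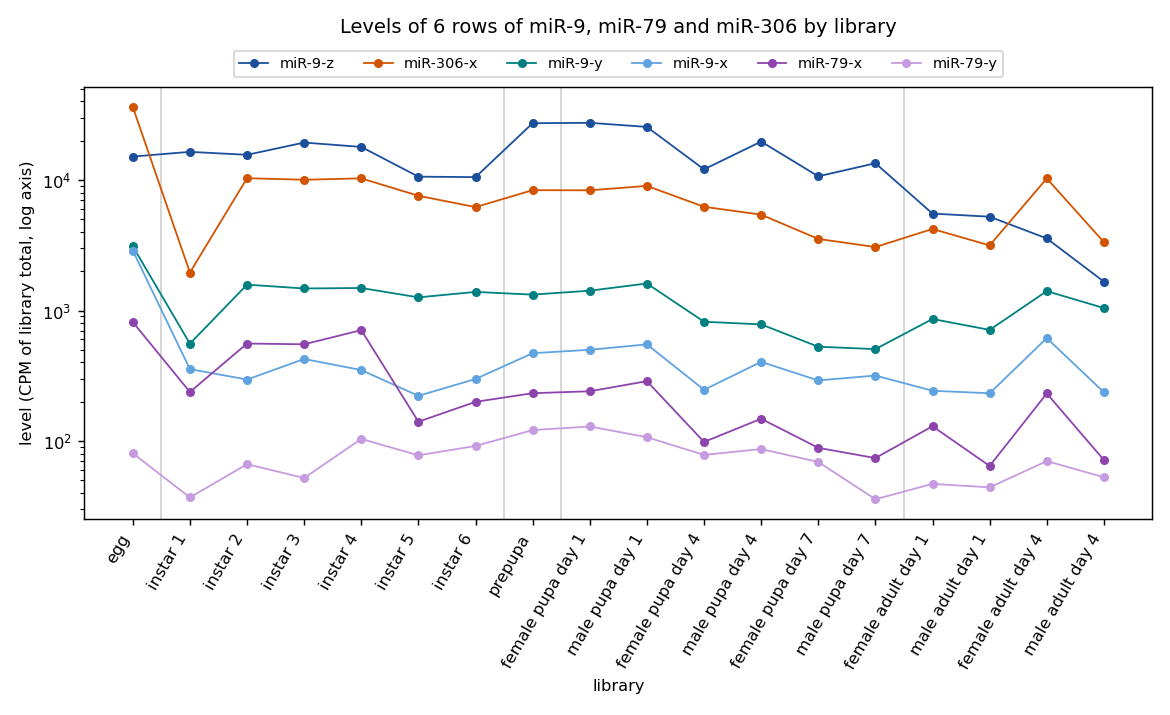
Level of 6 rows (y axis, CPM of the library total, log scale) in each of the 18 libraries (x axis, in developmental order; each point is 1 library and lines join points only to guide the eye; grey lines separate egg, larvae, prepupa, pupae and adults). miR-9-z is highest in the prepupa and on pupal day 1 and lowest in the day 4 male adult, whereas miR-306-x is highest in the egg.

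The level of miR-9-z was highest around pupation and lowest in adults. It was 15132 CPM in the egg and 10525, 16019 and 19371 CPM as the lowest, the median and the highest of the 6 instars. The prepupa had 27258 CPM, and the pupae had 27443 and 25525 CPM in females and males on day 1, 12072 and 19707 CPM on day 4, and 10677 and 13445 CPM on day 7. Adults had 5530 and 5235 CPM in females and males on day 1, and 3568 and 1664 CPM on day 4. The 4 adult libraries were therefore all below every other library of the series, and both day 4 adults were below both day 1 adults. The means were 15080 ± 3725 CPM in larvae (SD, n = 6), 18145 ± 7185 CPM in pupae (SD, n = 6) and 3999 ± 1780.4 CPM in adults (SD, n = 4).

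Adults of both ages were compared with pupae of all ages, in a single edgeR fit that also held the larvae. This is wider than the step of eclosion. From pupal day 7 to adult day 1, miR-9-z had a log2 difference of -1.25, adjusted p = 0.0688 (edgeR), which did not pass. miR-9-z fell by 2.29 on the log2 scale, SE 0.34, adjusted p = 0.000677 (edgeR), a 4.89-fold lower level. It was the only one of the 6 rows tested to pass the threshold of 0.05, against a background of 12.2% of 320 tested miRNAs called lower and 11.2% called higher. The other 5 had log2 changes from -0.81 for miR-79-y to -0.04 for miR-9-y. The median over the 6 rows was -0.45, beside 0.088 over all 320. The other 2 rows, miR-306-y and miR-306-z, did not reach the mean of 10 counts that the test required.

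Adults were also set against larvae. miR-9-z fell by 1.72 on the log2 scale, SE 0.33, adjusted p = 0.00175 (edgeR). miR-79-x fell by 1.51, SE 0.48, adjusted p = 0.0237 (edgeR). These 2 of 6 rows were called lower and none higher, where 15.6% of 320 miRNAs were called lower and 17.5% higher. The miR-79-x call was lost without the day 1 female adult (adjusted p = 0.0515), without the day 1 male adult (0.0759), without the day 4 male adult (0.0765) and with no filter on low counts (0.0903), all by edgeR. Both comparisons share the adult libraries.

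**Figure D2:**
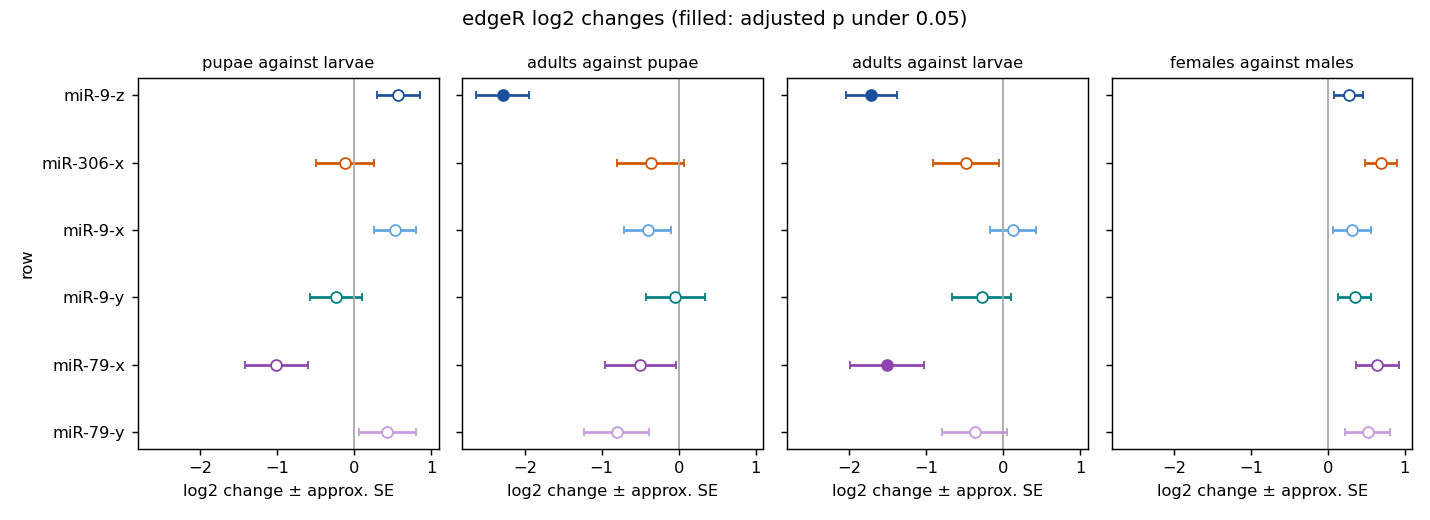
log2 change (x axis) of the 6 rows tested in 4 comparisons, each with an approximate standard error from edgeR; filled points passed an adjusted p of 0.05. miR-9-z is filled in both comparisons with adults, at -2.29 and -1.72, miR-79-x in adults against larvae, at -1.51, and no row in pupae against larvae or in females against males.

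Pupae were compared with larvae across metamorphosis. None of the 6 rows passed edgeR's test, against a background of 37.5% of 320 miRNAs called, although 1 row, miR-79-x, had an unadjusted p under 0.05. Its log2 change was -1.01, SE 0.41, adjusted p = 0.063 (edgeR). limma called none, and DESeq2 called 2 of the 6, miR-79-x and miR-9-x. miR-79-x was also called lower by edgeR with DESeq2's size factors, with library totals alone, and without instar 1, instar 5 or the day 1 female pupa. miR-9-z had a log2 change of 0.57, SE 0.28, adjusted p = 0.113 (edgeR). In CPM of the library total, the wide range of its pupal libraries, from 10677 to 27443 CPM, overlapped that of the larvae. These levels leave out the TMM factors that edgeR's test used. Those factors lower the highest larval level and raise the lowest pupal level, so the overlap does not carry over to the scale of the test.

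The high level of miR-9-z was already present in the prepupa, which has 1 library and allows no test. From instar 6 to the prepupa it went from 10525 to 27258 CPM, a 2.59-fold difference, and it was the only one of the members past 2-fold, where 24.0% of 154 miRNAs with at least 100 CPM in either library were more than 2-fold higher and 14.3% more than 2-fold lower. The other 5 members with enough counts had log2 ratios from -0.07 for miR-9-y to 0.65 for miR-9-x, beside a median of 0.24 over the 154. From the prepupa to the day 1 pupae no member was past 2-fold, against 4.05% of 148 miRNAs higher and 4.73% lower, and the 6 log2 ratios lay between -0.04 and 0.19. The prepupa and the young pupae of both sexes thus had nearly the same levels of these rows.

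miR-306-x had its highest level in the egg. It had 36321 CPM there and 1954 CPM in instar 1, a ratio of 18.6, and instars 2, 3 and 4 had 10327, 10049.9 and 10297 CPM. Instars 5 and 6 had 7575 and 6201.5 CPM and the prepupa 8362 CPM. Instar 1 was therefore the lowest of the 18 libraries, between the egg and 3 instars with close levels. Pupae had 8341 and 9016 CPM in females and males on day 1. They had 6238 and 5426 CPM on day 4, and 3538 and 3065 CPM on day 7. In CPM of the library total, the 2 sexes thus stood close together, and each later age was below the one before in both. These levels leave out the TMM factors that edgeR's test used. With the factors over all 18 libraries, the female level was not lower on pupal day 4 than on day 1. It then stood well above the male level on day 4, so both patterns depend on the scaling. Adults had 4218 and 3154 CPM in females and males on day 1, and 10277.5 and 3344 CPM on day 4, the day 4 female standing apart from the other 3. The means were 7734 ± 3299 CPM in larvae (SD, n = 6), 5937 ± 2434 CPM in pupae (SD, n = 6) and 5248 ± 3385 CPM in adults (SD, n = 4), and none of the 3 differences passed (adjusted p = 0.423 to 0.850, edgeR).

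The lower level in instar 1 than in the egg was shared by most of these miRNAs but not by miR-9-z. miR-9-x was 8.09-fold lower in instar 1 (2883 against 355 CPM), miR-9-y 5.57-fold lower (3107 against 557 CPM) and miR-79-x 3.43-fold lower (816 against 237 CPM), while miR-9-z had 15132 and 16438 CPM. With miR-306-x, 4 of the 5 members with at least 100 CPM were more than 2-fold lower and none higher, where 39.9% of 198 miRNAs were lower and 42.4% higher. Each side of this step is 1 library, and there is no test. miR-79-y, under that minimum, had 80.6 and 37.0 CPM, from 23 and 26 counts.

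The balance between miR-306-x and miR-9-z does not depend on library scaling, because it is the ratio of counts within a library, but ligation and amplification can favour one sequence over another, so it is a share of counts and not of molecules. miR-306-x was 70.6% of the counts of the 2 rows in the egg (exact 95% binomial interval 69.8 to 71.3%, which, like the other intervals, covers counting error only). It was 10.6% in instar 1, between 34.2% and 41.7% in instars 2 to 6, 23.5% in the prepupa and between 18.6% and 34.1% in the pupae. The day 1 adults had 43.3% in the female and 37.6% in the male, and the day 4 adults 74.2% and 66.8%. The egg and both day 4 adults thus held more miR-306-x than miR-9-z, and the other 15 libraries the reverse. The ratio of miR-9-z to miR-306-x was 0.347 in the day 4 female adult and 8.41 in instar 1, the lowest and the highest of the series.

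**Figure D3:**
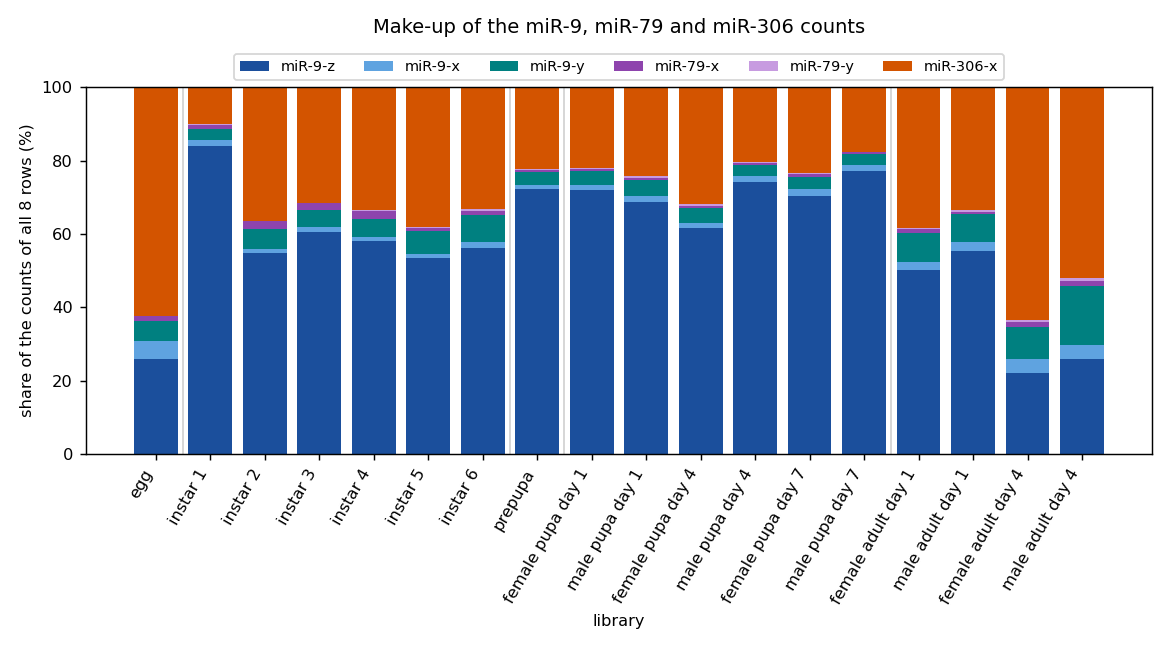
Share of the summed counts of the 8 rows (y axis, %) taken by 6 of them in each library (x axis); miR-306-y and miR-306-z are too rare to be drawn. miR-9-z takes 83.9% in instar 1 and 77.1% in the day 7 male pupa, but 25.9% in the egg and 22.1% in the day 4 female adult, where miR-306-x takes 62.2% and 63.5%.

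The longer form of miR-9, miR-9-x, followed another course than the shorter miR-9-z. It had 2883 CPM in the egg, 222, 324 and 425 CPM as the lowest, the median and the highest of the instars, 471 CPM in the prepupa and 247, 361 and 550.4 CPM over the pupae. Adults had 243 and 232 CPM in the female and male of day 1, and 614 and 236 CPM on day 4. As a share of the counts of both forms it was 16.002% in the egg (15.01 to 17.03%, exact binomial interval), and between 1.70% and 2.76% in all larvae, the prepupa and all pupae. In the day 1 adults it was 4.21% in the female and 4.25% in the male, and in the day 4 adults 14.7% (13.7 to 15.7%) and 12.4% (11.7 to 13.2%). The 13 libraries from instar 1 to pupal day 7 did not overlap with the 4 adults, and in both sexes the day 4 share was above that of day 1 beyond the intervals. miR-9-x had no change past the threshold in adults against pupae (log2 -0.40, SE 0.31, adjusted p = 0.376, edgeR), where miR-9-z fell.

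miR-9-y, the row named as the 3′ arm of miR-9, had levels that ran with those of miR-306-x rather than miR-9-z. It was at 3107 CPM in the egg, 557 CPM in instar 1 and between 1261 and 1579 CPM in instars 2 to 6, with 1324 CPM in the prepupa. Pupae had 1419 and 1611 CPM in females and males on day 1, 821 and 783 CPM on day 4 and 528 and 506 CPM on day 7, and adults 861 and 710.1 CPM on day 1 and 1408 and 1044 CPM on day 4. Levels were thus lower at each later pupal age and higher at each later adult age in both sexes. Spearman's rho over the 18 libraries was 0.907 with miR-306-x and 0.333 with miR-9-z, as descriptions of libraries that share their totals. In edgeR, miR-9-y passed no comparison, and its adjusted p from pupal day 1 to day 4 was 0.197 (log2 -0.79, SE 0.34).

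The ratio of the miR-9 arms, which like that of miR-79 takes the arms from the names, was tested by exact two-sided permutation of the libraries. With miR-9-x as the 5′ arm, the mean log2 ratio to miR-9-y was -1.94 ± 0.68 in larvae (SD, n = 6), -1.21 ± 0.44 in pupae (SD, n = 6) and -1.69 ± 0.40 in adults (SD, n = 4). No difference passed (exact permutation p = 0.0563, 0.114 and 0.543 for pupae against larvae, adults against pupae and adults against larvae, adjusted p = 0.169, 0.171 and 0.543 over 6 arm tests). With the counts of both forms summed, an alternative chosen after the data had been seen, the mean log2 ratio was 3.61 ± 0.70 in larvae (SD, n = 6), 4.34 ± 0.34 in pupae (SD, n = 6) and 2.03 ± 0.99 in adults (SD, n = 4). Adults differed from pupae by -2.31, adults from larvae by -1.58 and pupae from larvae by 0.73. No test is given for the summed form, which is almost all miR-9-z and so restates the change of that row. The 4 adult values, from 0.86 to 2.94, lay below all 6 larval values, the lowest of which was 2.96, and all 6 pupal values.

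miR-79-x, named as the 5′ arm of miR-79, was high early in life. It had 816 CPM in the egg and 237, 558, 551 and 707 CPM in instars 1 to 4, but 141 and 199.6 CPM in instars 5 and 6 and 232 CPM in the prepupa. Pupae had 241 and 288 CPM in females and males on day 1, 98.4 and 148 CPM on day 4 and 88.7 and 74.0 CPM on day 7, and adults 129.8 and 64.4 CPM on day 1 and 231 and 71.6 CPM on day 4. Instars 2 to 4 were therefore above every later library. The linear trend over instars had a log2 slope of -0.14 per instar, SE 0.20, adjusted p = 0.656 (edgeR). None of the 6 rows passed in that trend, by edgeR or limma, no row fell under 0.05 before adjustment, and DESeq2 called 1, miR-79-y, where 18.4% of 234 miRNAs were called lower and 10.7% higher by edgeR.

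miR-79-y, named as the other arm, stayed low throughout. It had 80.6 CPM in the egg, 37.0, 72.0 and 104 CPM as the lowest, the median and the highest of the instars, 121 CPM in the prepupa, 35.8, 82.5 and 129 CPM over the pupae, and 46.9 and 44.2 CPM on day 1 and 70.1 and 52.8 CPM on day 4 in the female and male adults. Its highest and lowest libraries differed by 3.61-fold, the smallest such range among the 6 members detected in every library. It passed no edgeR comparison.

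miR-79-x therefore outnumbered miR-79-y in every library, but by unequal amounts. It was 91.0% of the counts of both arms in the egg and between 86.5% and 91.4% in instars 1 to 4, and 64.4% in instar 5 (exact binomial interval 50.9 to 76.4%, from 59 counts) and 68.5% in instar 6 (62.1 to 74.5%). It was 65.7% in the prepupa, from 55.7% to 72.9% in the pupae and from 57.6% to 76.7% in the adults. The egg and the 4 youngest instars lay above the other 13 libraries. The mean log2 ratio was 2.29 ± 1.05 in larvae (SD, n = 6), 0.80 ± 0.42 in pupae (SD, n = 6) and 1.04 ± 0.64 in adults (SD, n = 4). The difference of -1.49 between pupae and larvae had an exact permutation p of 0.0173 and an adjusted p of 0.104, and did not pass. miR-306 was not tested in this way, since miR-306-y had a mean of 8.5 counts.

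**Figure D4:**
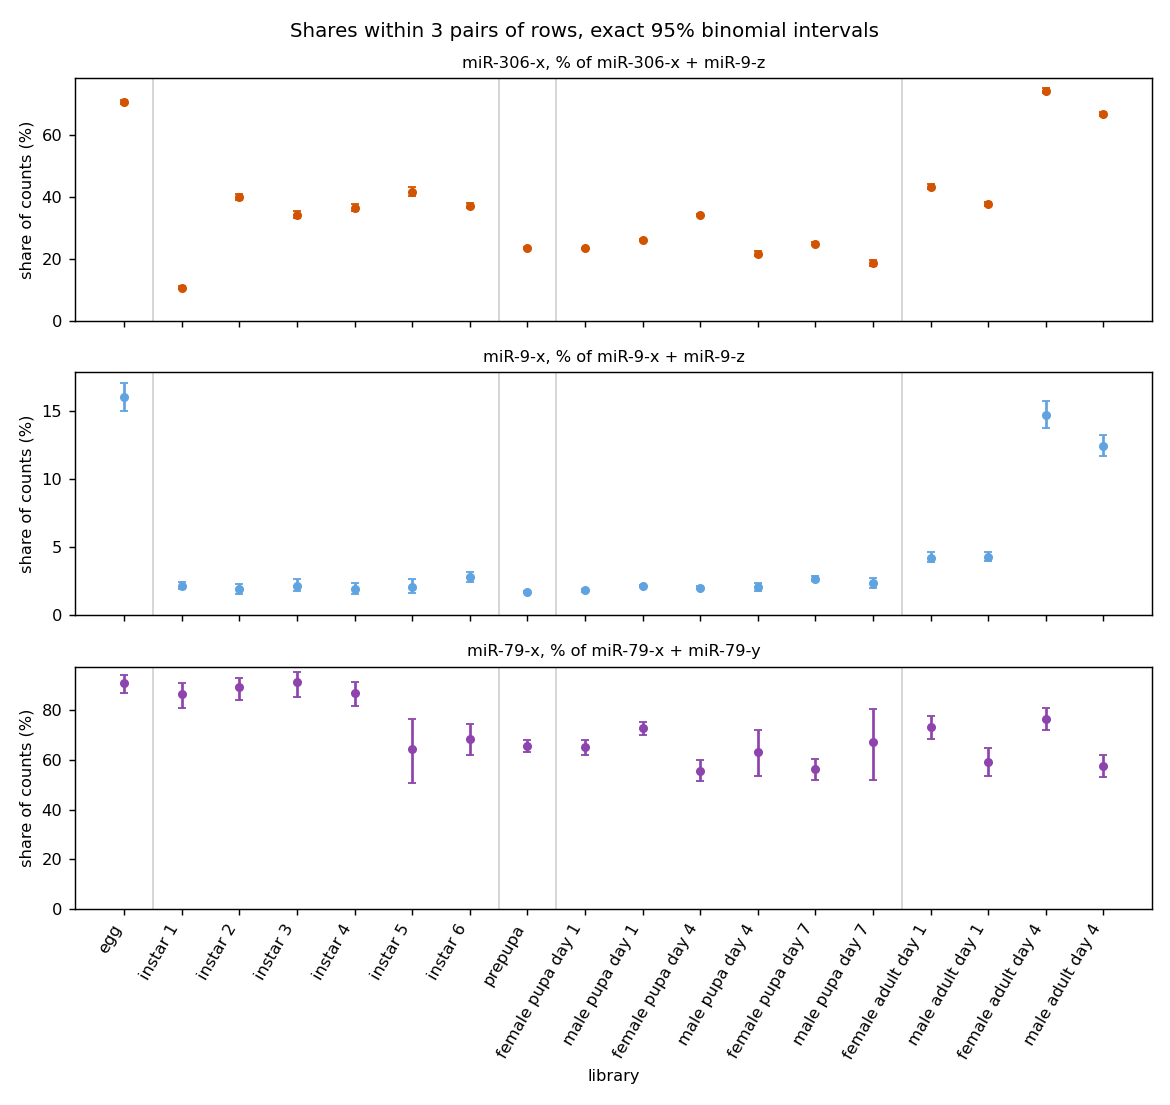
Share of counts (y axis, %) of 1 row of a pair in each library (x axis), for miR-306-x with miR-9-z (top), miR-9-x with miR-9-z (middle) and miR-79-x with miR-79-y (bottom); bars are exact 95% binomial intervals, which cover counting error only. The egg and the day 4 adults stand above the other libraries in the upper 2 panels, and the egg and instars 1 to 4 in the lowest.

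Within the pupae and adults, each age was set against the next, the female and the male library of an age serving as its replicates, in a fit of 10 libraries with terms for age and sex. miR-9-z had a log2 difference of -1.25, SE 0.30, adjusted p = 0.0688 (edgeR), from pupal day 7 to adult day 1, and -1.32, SE 0.30, adjusted p = 0.336 (edgeR), from adult day 1 to day 4, neither past the threshold. For the first of these steps none of 7 rows passed in edgeR, where 1.16% of 344 miRNAs were called higher and 2.62% lower, 1 row fell under 0.05 before adjustment, and limma and DESeq2 each called 1, miR-9-z. edgeR also called it once either day 4 adult library, or the vertebrate-named rows, were left out. For the second step edgeR called 0.291% of 344 miRNAs, none of them a member, 1 member had an unadjusted p under 0.05, limma called none and DESeq2 called miR-9-y. From pupal day 1 to day 4, all 7 rows had log2 differences below 0, from -1.37 for miR-306-y to -0.40 for miR-79-y, beside a median of 0.0316 over 344 miRNAs. None passed in edgeR or limma or fell under 0.05 before adjustment, against 5.52% of 344 called by edgeR, and DESeq2 called miR-9-y. edgeR made the same call once either day 4 adult library, or the vertebrate-named rows, were left out. For pupal day 7 against day 4, edgeR and limma called no miRNA at all (0.0%), 1 member had an unadjusted p under 0.05, miR-306-x (log2 -0.80, SE 0.33), and DESeq2 called miR-9-y.

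Females were compared with males over the same 5 ages. The 7 rows tested had log2 differences from 0.27 for miR-9-z to 1.95 for miR-306-y, beside a median of 0.21 over 344 miRNAs. None passed in edgeR, limma or DESeq2, while edgeR called 0.581% of the 344. 2 had an unadjusted p under 0.05, miR-306-x (log2 0.69, SE 0.21, adjusted p = 0.220, edgeR) and miR-306-y, which rests on 75 counts over the 6 pupal and 26 over the 4 adult libraries. In CPM of the library total, miR-306-x was higher in females at pupal days 4 and 7 and adult days 1 and 4, and lower at pupal day 1. With the TMM factors over all 18 libraries, its level at pupal day 1 was not lower in females, so that order depends on the scaling. The sex difference itself did not differ between adults and pupae past the threshold for any of the 7 rows in edgeR or limma, none had an unadjusted p under 0.05, and 3.20% of 344 miRNAs were called by edgeR. DESeq2 called miR-79-x, with 231 CPM in females and 71.6 CPM in males on adult day 4.

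miR-275-y, which shares the seed of miR-306-x, held a growing part of that seed's counts from the egg to instar 6. It had 515 CPM in the egg and 330 CPM in instar 1, and 3550, 5810, 6348, 7634 and 10578 CPM in instars 2 to 6, a trend of 0.75 log2 per instar, SE 0.21, adjusted p = 0.0391 (edgeR). Of the counts of miR-306-x and miR-275-y together, miR-306-x made 98.6% in the egg, 85.6% in instar 1 and 37.0% in instar 6, with each instar below the one before. It was 42.5% in the prepupa, from 42.6% to 58.4% in the pupae, and 57.6% and 56.1% in the day 1 and 79.4% and 62.2% in the day 4 female and male adults. The summed level of the rows with this seed was 36836 CPM in the egg, 2286 CPM in instar 1, and between 13883 and 16784 CPM in instars 2 to 6. In CPM of the library total, the sum therefore varied less over these 5 instars than either of its parts. These levels leave out the TMM factors, which over all 18 libraries were 1.467 in instar 2 and 0.889 in instar 6. With those factors the sum rose from instar 2 to instar 6 and miR-306-x varied less than the sum, so the order depends on the scaling.

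**Figure D5:**
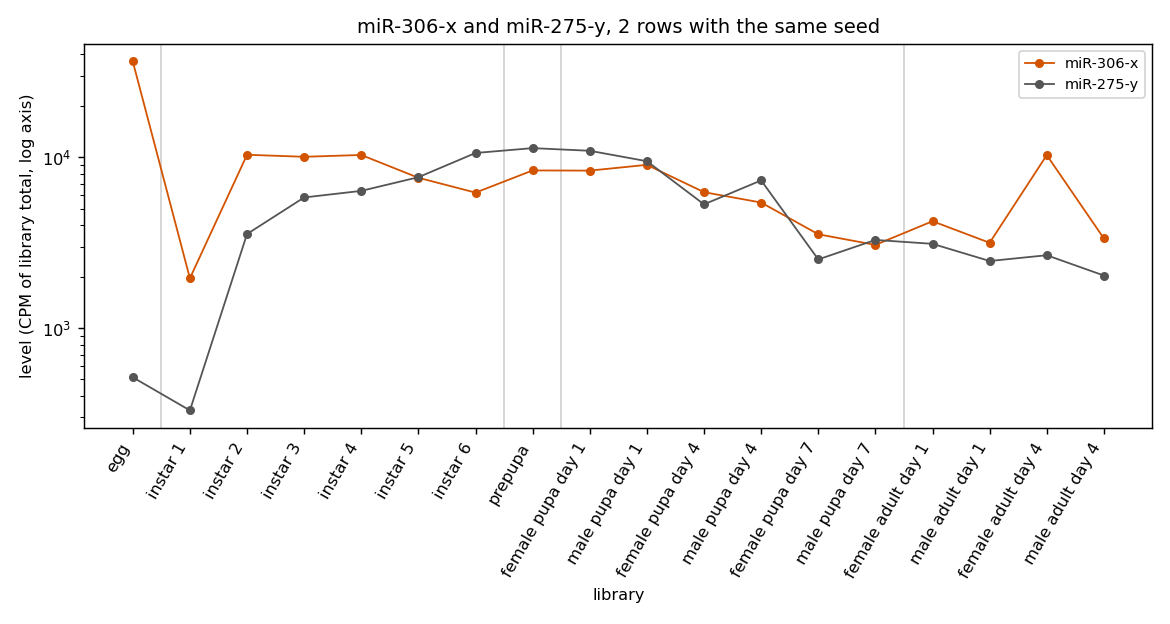
Levels of miR-306-x and miR-275-y, the 2 abundant rows with the same seed (y axis, CPM of the library total, log scale), in each library (x axis, 1 point per library). miR-306-x is far above miR-275-y in the egg (36321 against 515 CPM), and miR-275-y passes it in instar 6 (10578 against 6201.5 CPM).

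Outside the 8 rows and their near copies, the 182 miRNAs with a mean of at least 100 CPM were ranked by their likeness to each member over the 18 libraries (Spearman's rho, as a description). Some members were more like each other than like most of these, as miR-9-y was to miR-306-x (0.907, above) and to miR-79-x (0.822), and miR-79-x to miR-306-x (0.802). Among the 182, miR-79-x was most like 3 rows of miR-10, a miRNA of the Hox cluster, namely miR-10-y (0.922), sfr-miR-10-3p (0.798) and sfr-miR-10-5p (0.785). miR-306-x was most like sfr-miR-279c-3p (0.841), miR-308-y (0.781) and miR-92-z (0.686), and miR-9-y most like miR-308-y (0.723), sfr-miR-279c-3p (0.711) and sfr-miR-317-3p (0.701). miR-9-z was most like miR-7-x (0.742), sfr-miR-279a-3p (0.705) and miR-305-y (0.643). miR-9-x was most like a predicted miRNA without a family name (0.783), miR-7-x (0.750) and sfr-miR-92a-3p (0.742).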

How the data were processed

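Trizol-extracted total RNA was made into small RNA libraries with a TruSeq kit and sequenced by Illumina, per the labels' protocols. The authors deposited raw counts for named miRNA sequences in all 18 libraries; how reads were aligned and miRNAs called, and any build, is not given in the sources used here. Rows equal in sequence and counts were merged (741 to 660). Comparisons used the quasi-likelihood test of edgeR 4.0.16 (R 4.3.3), robust, with TMM factors, for all miRNAs averaging 10 counts or more, with Benjamini-Hochberg adjustment over all of these at 0.05. Printed SEs, |log2 change| over the root of F, are approximate. Single-library steps used 1 CPM added, 100 CPM or more in either library and 2-fold. Arm ratios used 0.5 counts added. DESeq2 1.42.0, limma 3.58.1, other scalings, no filter, unmerged rows and left-out libraries were alternatives. Rows outside the 8 were named if they shared a seed, were near copies (at most 2 differences over 18 or more bases) or were among the 3 most similar in level. Duplexes were folded with ViennaRNA 2.7.2; Python 3.11.15 and scipy 1.17.1 were used. The tests were run on simulated data first. The members and lists were chosen with earlier results of these data known. Vertebrate-named rows were listed from their names (89), and 82 had no near copy elsewhere in the table.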

Additional observations from a re-analysis of the deposited data

Results flagged for a closer look

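In the day 4 female adult, 2 members stood far from the other 3 adult libraries: miR-306-x had 10277.5 CPM, with 4218 CPM next, and miR-9-x had 614 CPM, with 243 CPM next. The library held 0.793% vertebrate-named counts, the second highest share; its part in these levels was not tested. In instar 1, miR-9-y had 557 CPM, with 1261 CPM as the next larval value. These are 3 values, from 2 libraries, found over 24 combinations of a row and a life stage, where chance gives about 1 in 20.

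The share of miR-79-x among the counts of both miR-79 arms differed between the sexes in opposite directions before and after eclosion. It was higher in females in both adult ages, by 14.1 percentage points on day 1 and 19.2 on day 4, with a mean of 16.6. At all 3 pupal ages it was lower in females, the female minus male difference being -7.83, -7.36 and -11.2 points on days 1, 4 and 7. The exact binomial intervals of the sexes overlapped on pupal day 4 (51.4 to 59.9% in the female, 53.4 to 72.0% in the male). They also overlapped on pupal day 7 (51.9 to 60.4% and 52.0 to 80.5%), but not on pupal day 1 or in adults. The difference between adults and pupae was not tested, and the day 4 and day 7 male pupae gave 111 and 46 counts of both arms. This pair was picked from a wider search for opposite directions at all ages. The shares of miR-9-x with miR-9-z, miR-306-x with miR-9-z and miR-306-x with miR-275-y were searched too and had no such pattern.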

How the results depend on the processing

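The direction of miR-9-z, lower in adults than in pupae and than in larvae, and its call held under every alternative run, with log2 changes from -2.55 to -2.03 and from -1.98 to -1.45 when single libraries were left out and adjusted p up to 0.00604 and 0.014 over all alternatives. Counts of members called, with the main count given first, were as follows. In pupae against larvae, 0 became 1 with DESeq2's size factors or library totals alone and 2 with the DESeq2 Wald test, and ran from 0 to 1 when single libraries were left out. In adults against larvae, 2 became 1 with no filter, and ran from 1 to 2 over left-out libraries. In pupal day 4 against day 1, 0 became 1 with the DESeq2 Wald test or without vertebrate-named rows, and ran from 0 to 1 over left-out libraries. In adult day 1 against pupal day 7, 0 became 1 with the DESeq2 Wald test, limma or without vertebrate-named rows, and ran from 0 to 1 over left-out libraries. In pupal day 7 against day 4, adult day 4 against day 1, the sex difference in adults against pupae and the larval trend, 0 became 1 with the DESeq2 Wald test. The cause of these changes was not tested. Without the replicate block, with no age term, females against males still had 0 members called. The miR-9 arm ratio of pupae against larvae, 0.73, ran from 0.62 to 0.99 over left-out libraries and passed without instar 1 (0.99, adjusted exact permutation p = 0.026). With miR-9-x and miR-9-z summed, adults against pupae moved from -0.48 to -2.31 and adults against larvae turned from 0.25 to -1.58, since miR-9-z holds most of the reads. Depth limits miR-306-y and miR-306-z in every library and miR-79-y in the egg, instars 1 to 5 and the day 7 male pupa, where it had 12 to 27 counts.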

Other observations

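miR-9-z, miR-79-x and miR-306-x were folded against the rows named as 3′ arms, miR-9-z standing for miR-9 as its most abundant row with a 5′ arm sequence. miR-306-x paired best with miR-306-y (16 bases, -23.8 kcal/mol). miR-79-x paired best with miR-79-y (15 bases, -17.8 kcal/mol), but miR-79-y paired more strongly with miR-9-z (18 bases, -21.4 kcal/mol). miR-9-z and miR-9-y had 15 paired bases and -13.6 kcal/mol. The names alone therefore do not settle which rows are arms of 1 hairpin, and the arm ratios and shares of both miR-9 and miR-79 rest on the names.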
